A study of Rattus norvegicus with 50 samples.

Results

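Liver gene expression in rats that received nevirapine together with galactosamine was compared between 8 d and 48 h after the galactosamine injection, each time relative to its own vehicle group. The comparison used 12 of the 50 arrays of the series, 3 in each of 4 groups, and every array came from a different rat. All were female Brown Norway rats (Bn/Crl, MHC haplotype RT1n) of 9 to 11 weeks of age. The combination group at 8 d (rats 73, 84 and 87) was given nevirapine by mouth for 15 d, at 150 mg/kg, then at 100 mg/kg and, after a drug-free day, at 75 mg/kg, with 1 intraperitoneal dose of galactosamine at 750 mg/kg on day 7. Its vehicle group at 15 d (rats 13, 14 and 15) received sham oral doses and a sham injection, and its label counts 15 d from that injection. The combination group at 48 h (rats 70, 71 and 72) followed the same schedule up to 9 d of nevirapine, and its vehicle group (rats 10, 11 and 12) was sham-dosed over the same time. Tissue was collected at 2 h past the final oral dosing. The stated purpose of the series was to follow the interval in which the combination, but neither drug alone, led to fibrosis. All 20826 probe sets that map to 1 gene symbol entered, reduced to 14217 genes by keeping the brightest probe set of each gene.

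As background, nevirapine is an inhibitor of the reverse transcriptase of HIV that activates the nuclear receptors CAR and PXR in the liver and can cause immune-mediated liver injury, and galactosamine injures hepatocytes by trapping their uridine nucleotides. After such an injury macrophages clear dead cells, surviving hepatocytes divide, and hepatic stellate cells can turn into myofibroblasts, which secrete fibrillar collagens, the enzymes that cross-link them and the proteins that store and release TGF-beta. Where this matrix outlasts the repair it is called fibrosis.

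Values are log2 array signals. For each gene the change at 8 d is the mean of the combination rats at 8 d minus the mean of the vehicle rats at 15 d, the change at 48 h is the mean of the combination rats at 48 h minus that of the vehicle rats at 48 h, and the shift is the change at 8 d minus the change at 48 h. A gene was called where its adjusted p in limma was under 0.05. The highest mean of the 27 Bacillus subtilis control probe sets, 4.37, served as the background level, and where a group mean lay below it a fold is given as a lower bound against that level. Array medians lay between 4.95 and 5.09. Each rat's mean correlation with the other rats of its group was 0.992 to 0.993 in the combination at 8 d and 0.996 to 0.997 in vehicle at 15 d, against 0.984 to 0.986 in the combination at 48 h and 0.994 to 0.995 in vehicle at 48 h. The difference between the 3' and 5' GAPDH control probe sets, a measure of RNA quality, was 0.05 to 0.33 in the combination at 8 d and 0.03 to 0.12 in vehicle at 15 d, against 0.29 to 0.35 in the combination at 48 h and 0.48 to 0.74 in vehicle at 48 h. The vehicle groups also differed from each other in 1094 genes (7.7% of genes), 671 higher (4.72%) and 423 lower (2.98%) at 15 d than at 48 h, so the direct difference between the combination groups is also given for several lists and genes whose vehicle groups differed. The 32 measured hepatocyte function genes had medians of 12.70 to 12.83 in the rats of the combination at 8 d and 12.33 to 12.72 in those of the combination at 48 h, high levels that match the labelled tissue.

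At 8 d, compared with 48 h, some genes of the matrix, its cross-linking enzymes and mast cells rose relative to vehicle. Upward shifts were called in 0 of 8 fibrillar collagens, 2 of 22 basement membrane and 5 of 35 matricellular and cross-linking genes. They were called in 5 of 19 mast cell and eosinophil genes, against 4.04% of all genes. Downward shifts were called in 20 of 32 interferon response genes, against 4.97% of all genes, and in genes of the replicative helicase. Targets of drug-sensing receptors and class II antigen presentation genes were high at both times. Proteasome genes fell relative to vehicle as well, but the median of their direct difference between the combination groups was -0.06. Of the 14217 genes, 1281 had a shift (9.01%), 575 upward (4.04%) and 706 downward (4.97%). This number depended on the vehicle group. With the vehicle rats at 8 d in place of those at 15 d, 448 genes were called, and 331 of the 1281 were called the same way. Against vehicle, 3521 genes differed at 8 d (24.8%), 1863 higher (13.1%) and 1658 lower (11.7%). At 48 h 2265 did (15.9%), 1445 higher (10.2%) and 820 lower (5.77%). Counts within the gene lists below are to be read against these shares of all genes. At both times and in the same direction, 815 genes differed from vehicle, 561 of them higher and 254 lower. A change at 8 d with an unadjusted p above 0.05 at 48 h was seen in 615 of the shifted genes, 288 higher and 327 lower at 8 d. The reverse, a change at 48 h with an unadjusted p above 0.05 at 8 d, was seen in 328 of the shifted genes, 204 higher and 124 lower at 48 h. Another 57 genes were called in opposite directions at the 2 times. Compared directly, without the vehicle groups, 486 of the 575 upward and 538 of the 706 downward genes were called the same way. Over all genes, 15.2% were called higher and 19.9% lower directly. The direct difference uses the same combination rats as the shift, so this overlap is no independent check. The direct difference had the opposite sign in 12 of the upward and 20 of the downward genes. The rats of the combination groups at the 2 times did not overlap in 41.3% of all genes, and in 39.3% once the vehicle means were taken off.

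**Figure D1:**
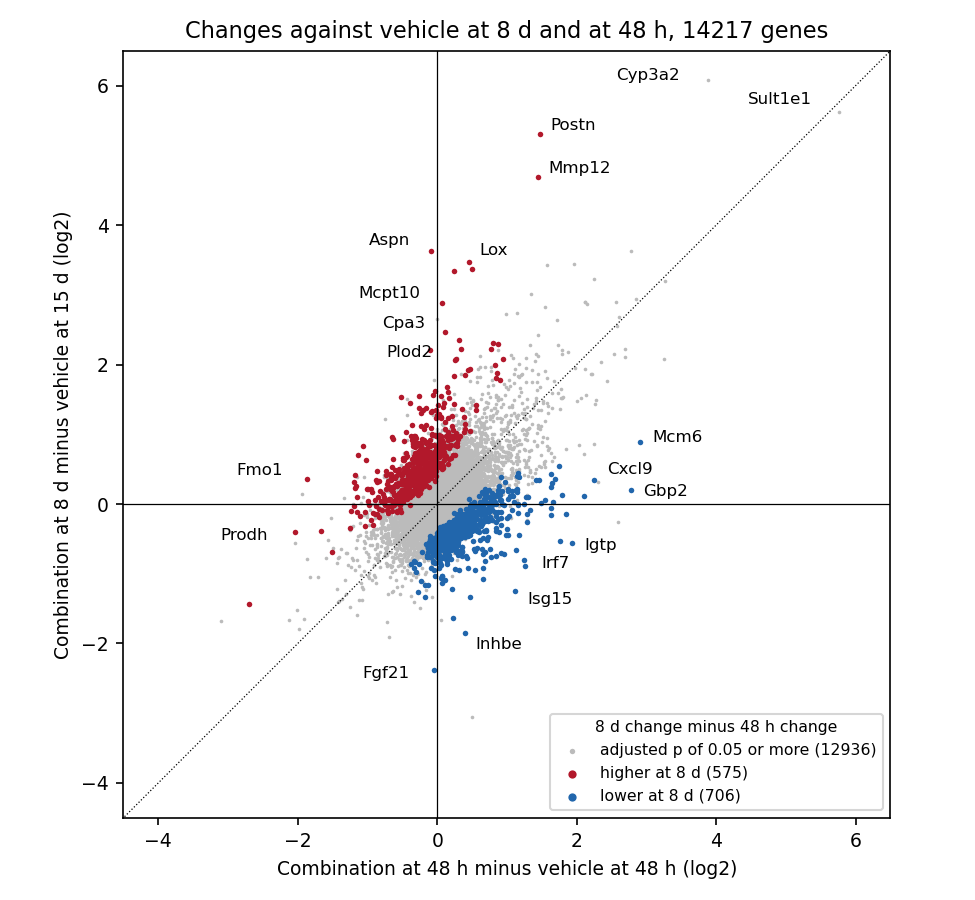
Each point is 1 of 14217 genes, with the change at 48 h (log2, combination minus vehicle) on the horizontal and the change at 8 d (log2, combination minus vehicle at 15 d) on the vertical axis; red marks the 575 genes with an upward and blue the 706 with a downward shift, and the dotted line is where both changes are equal. Postn, Mmp12, Aspn and Lox stand high on the vertical axis, Gbp2, Igtp, Irf7 and Isg15 lie below the line, and Sult1e1 lies near it at 5.62 and 5.77.

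Genes of the scar matrix were among the largest rises. Periostin (Postn), a matricellular protein of remodelling tissue, had 7.80, 6.58 and 8.77 in the combination rats at 8 d and 2.45, 2.46 and 2.31 in vehicle rats at 15 d. At 48 h Postn had 2.95, 2.80 and 6.71 in the combination rats and 2.97, 2.64 and 2.43 in vehicle rats. All rats at 8 d were high, rat 72 alone was high at 48 h, and rat 72 lay just above the lowest rat at 8 d, so that the combination groups overlapped before the vehicle means were taken off. Its shift was 3.83 ± 1.11 (SE, adjusted p = 0.0251), the change at 8 d was at least 10.2-fold (adjusted p = 5.15e-06), and the 48 h change did not pass the test (adjusted p = 0.224). The call of the shift of Postn held in 13 of 21 alternative settings. Asporin (Aspn), a small leucine-rich proteoglycan that binds collagen, had 7.01, 7.76 and 8.31 in the combination rats at 8 d and 4.19, 4.42 and 3.58 in vehicle rats at 15 d. At 48 h Aspn had 2.35, 2.48 and 4.77 in the combination rats and 4.43, 2.47 and 2.96 in vehicle rats. The rats at 8 d lay above every other rat, and the shift of Aspn was 3.72 ± 0.78 (SE, adjusted p = 0.00296), with a level at least 10.0-fold higher at 8 d than at 48 h.

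Some of the enzymes that modify and cross-link collagen rose with them. Lysyl oxidase (Lox), which cross-links collagen and elastin, had 6.73, 7.10 and 7.51 in the combination rats at 8 d and 3.82, 3.80 and 3.30 in vehicle rats at 15 d. At 48 h Lox had 3.19, 3.44 and 5.42 in the combination rats and 3.99, 3.28 and 3.41 in vehicle rats. Its shift was 3.02 ± 0.74 (SE, adjusted p = 0.00877), and the level was at least 6.71-fold higher at 8 d than at 48 h. In the fit of every probe set, the other one of Lox, below the background level on average, had a shift of 1.52 (adjusted p = 0.225). With the mean of its probe sets the call of Lox was lost (adjusted p = 0.0505). Plod2, the lysyl hydroxylase that acts on collagen telopeptides, had 7.73, 7.71 and 8.13 in the combination rats at 8 d and 5.71, 5.73 and 5.47 in vehicle rats at 15 d. At 48 h Plod2 had 5.31, 5.58 and 6.55 in the combination rats and 5.74, 5.58 and 5.11 in vehicle rats. The 3 rats at 8 d lay above all others, and the shift of Plod2 was 3.68-fold (log2 1.88 ± 0.42 SE, adjusted p = 0.00455). Loxl1, a lysyl oxidase relative needed for elastic fibres, shifted by 1.59 (adjusted p = 0.0165), and the elastic fibre protein Fbln5 by 0.84. Of the 35 measured matricellular and cross-linking genes, 5 shifted upward (Postn, Lox, Loxl1, Plod2 and Fbln5) and 1 downward (Plod1, another lysyl hydroxylase, at -0.54), and 29 did not pass the test. The upward count of the matricellular and cross-linking list was 10 without rat 72, 3 without rat 10 or 71, and 2 without rat 70 or 87. The list's median shift was 0.34, against -0.06 over all genes. At 8 d, 14 of its genes were higher and 3 lower than vehicle (13.1% and 11.7% of all genes), and at 48 h 2 were higher and 1 lower (10.2% and 5.77% of all genes).

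The fibrillar collagens themselves were higher at 8 d but none passed the test of the shift by its brightest probe set. Col1a1, the alpha 1 chain of type I collagen, had 7.82, 7.75 and 7.90 in the combination rats at 8 d and 5.38, 6.13 and 5.58 in vehicle rats at 15 d. At 48 h Col1a1 had 6.26, 6.45 and 7.61 in the combination rats and 6.98, 5.56 and 5.92 in vehicle rats. Rat 72 of the combination at 48 h came close to the 8 d rats, and rat 10 was the highest of its vehicle group. Col1a1 rose by 2.13 at 8 d (adjusted p = 0.000139), its change at 48 h was 0.62 (adjusted p = 0.333), and its shift was 1.51 ± 0.56 (SE, adjusted p = 0.081). Col3a1, the chain of type III collagen, rose by 1.90 at 8 d (adjusted p = 0.000144), with a change of 0.77 at 48 h and a shift of 1.13 that did not pass (adjusted p = 0.15). Col5a2, a type V chain that helps nucleate fibrils, rose by 2.72 at 8 d and had a shift of 1.73 (adjusted p = 0.0577). The other probe set of Col5a2, in the fit of every probe set, had a shift of 2.41 that passed (adjusted p = 0.0123). Of the 8 fibrillar collagens, 5 were higher than vehicle at 8 d and 0 at 48 h. The median shift of the 8 genes was 0.81, and by rat the median change was 1.32, 1.06 and 1.49 at 8 d against -0.08, 0.30 and 1.10 at 48 h. Without rat 72 the median shift of the fibrillar collagens was 1.18, and 4 of the 8 genes shifted upward. With array weights, or with the mean of all probe sets, 1 of the 8 shifted upward. With the dimmest 40% left out, 1 of the remaining 5 did. With cyclic loess, the GAPDH covariate or only the 4 groups, 0 did. In these whole-liver samples, more or fewer cells of a type and more or less RNA per cell cannot be told apart.

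**Figure D2:**
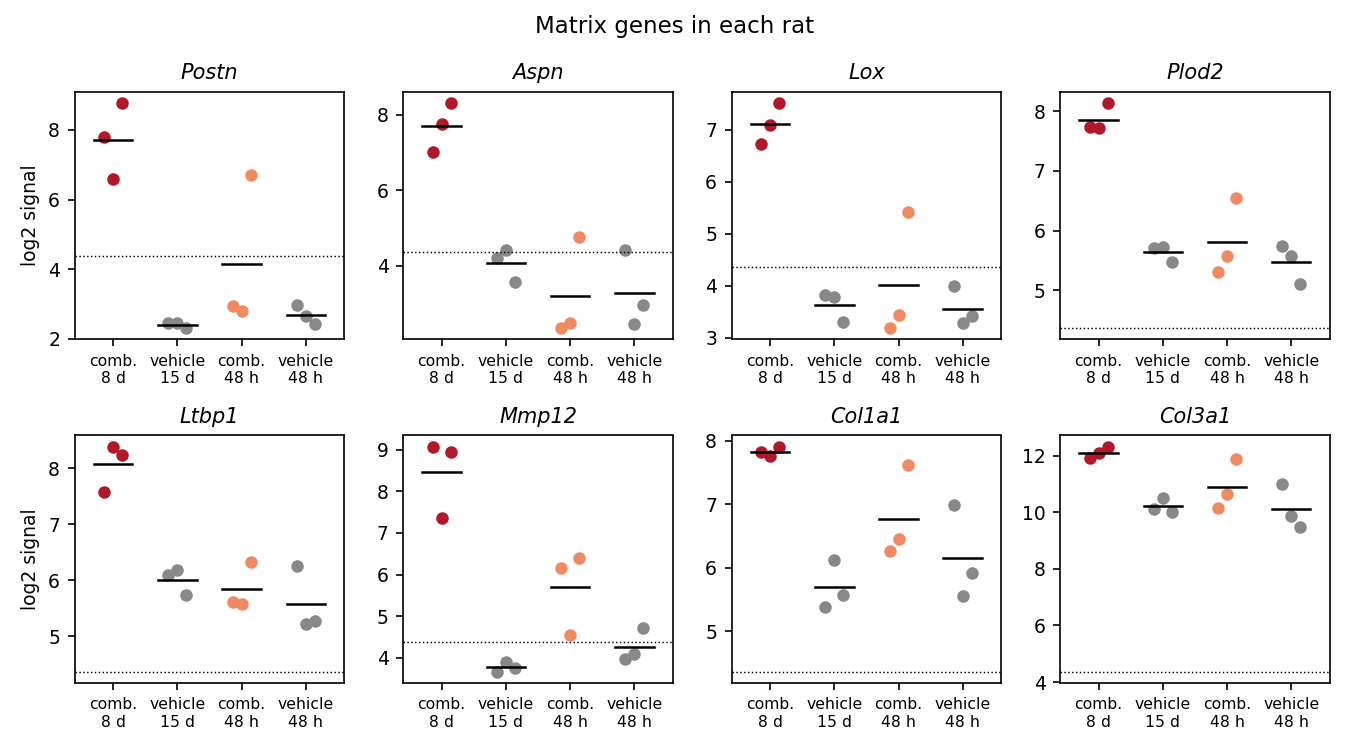
Log2 signal of 8 matrix genes in each rat (points) of the combination at 8 d, vehicle at 15 d, the combination at 48 h and vehicle at 48 h, with the group mean as a bar and the background level of 4.37 as a dotted line. For Aspn, Lox, Plod2, Ltbp1 and Mmp12 the 3 rats at 8 d lie above all rats of the other groups, whereas for Col1a1 and Col3a1 the lowest rat at 8 d has 7.75 and 11.92, against 7.61 and 11.88 in rat 72, the highest of the 48 h group.

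Basement membrane genes were higher at 8 d in 12 and lower in 3 of 22, and 2 of them had an upward shift. These were Col4a5, a chain of type IV collagen, at 1.36 (adjusted p = 0.0124), and nidogen 1 (Nid1), which links laminin to type IV collagen, at 1.01 (adjusted p = 0.0462). The call of Nid1 held in 8 of 22 alternative settings, and its other probe set had a shift of -0.33. Without rat 12, 4 of the basement membrane genes shifted upward, and 7 did without rat 72. By rat, the median change of the 22 genes was 0.61, 0.62 and 0.51 at 8 d against -0.02, 0.15 and 0.23 at 48 h. The rats of the 2 times did not overlap.

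In the TGF-beta pathway, the proteins that hold latent TGF-beta in the matrix rose while Tgfb1 itself fell. Ltbp1, the latent TGF-beta binding protein 1, had 7.57, 8.38 and 8.24 in the combination rats at 8 d and 6.09, 6.18 and 5.73 in vehicle rats at 15 d. At 48 h Ltbp1 had 5.61, 5.58 and 6.32 in the combination rats and 6.25, 5.21 and 5.28 in vehicle rats. All rats at 8 d lay above all others, and the shift was 3.50-fold (log2 1.81 ± 0.37 SE, adjusted p = 0.0025). Of the ligands, Tgfb3 had 5.55, 6.01 and 6.40 in the combination rats at 8 d and 5.25, 5.07 and 5.04 in vehicle rats at 15 d. At 48 h Tgfb3 had 4.72, 4.39 and 5.23 in the combination rats and 5.27, 4.87 and 5.23 in vehicle rats. Its shift was 1.21 ± 0.27 (SE, adjusted p = 0.00445). Tgfb1, the ligand most studied in liver fibrosis, had 4.88, 4.38 and 4.74 in the combination rats at 8 d and 5.25, 4.95 and 4.97 in vehicle rats at 15 d. At 48 h Tgfb1 had 5.42, 5.29 and 6.10 in the combination rats and 5.24, 5.02 and 4.84 in vehicle rats. Every rat at 8 d lay below every combination rat at 48 h, and the shift of Tgfb1 was -0.96 ± 0.25 (SE, adjusted p = 0.0123). The levels of Tgfb1 at 8 d were close to the background level of 4.37. Its call was lost with only the 4 groups, with the GAPDH covariate and with the vehicle rats at 8 d in place of those at 15 d. Tgfb2, the other ligand, had a shift of 0.02 (adjusted p = 0.959). Among 27 genes of the pathway, 7 shifted upward and 2 downward (4.04% and 4.97% of all genes), with a median shift of 0.18. The upward count of the TGF-beta pathway list was 4 without rat 13 or 87, and 3 with the RNA quality covariate or with the vehicle rats at 8 d in place of those at 15 d. Beside Ltbp1 and Tgfb3, the upward ones were the binding proteins Ltbp3 (0.82) and Ltbp2 (0.73), the pseudoreceptor Bambi (0.80), the integrin chain Itgav that takes part in activating latent TGF-beta (0.58), and the common signal transducer Smad4 (0.51). The downward ones were Tgfb1 and the co-receptor endoglin (Eng, -0.66), a gene of endothelial cells. At 8 d, 12 genes of the list were higher and 2 lower than vehicle (13.1% and 11.7% of all genes). At 48 h 5 were higher and 2 lower (10.2% and 5.77% of all genes).

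Stellate cell genes moved in part. Of 24 measured stellate and myofibroblast genes, 4 shifted upward and 0 downward, with a median of 0.22. They were Lrat, the retinol esterifying enzyme of stellate cells, at 1.36 (adjusted p = 0.0126), the PDGF receptor Pdgfra at 0.86 (adjusted p = 0.0488), the ligand Pdgfc at 0.84 (adjusted p = 0.0292) and the myosin kinase Mylk at 0.78 (adjusted p = 0.0116). Pdgfra kept its call in 9 of 22 alternative settings, and the other probe set of Mylk had a shift of -0.03. The contractile genes that define myofibroblasts did not pass: Acta2, smooth muscle actin, had a shift of -0.45 (adjusted p = 0.236), with changes of -0.09 at 8 d and 0.36 at 48 h, and Tagln, its companion protein transgelin, had a shift of -0.54. At 8 d, 11 genes of the list were higher than vehicle and 1 lower, among them Vim (1.51), Pdgfra (1.24) and the stellate cell globin Cygb (1.22), and at 48 h 1 was higher (Vim, 1.29). Without rat 72, 8 of the 24 stellate and myofibroblast genes shifted upward, and 2 did without rat 11, 15, 70, 71 or 84.

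Among 28 matrix proteases and inhibitors, 3 shifted upward and 0 downward. Without rat 10 or 87 1 of the matrix proteases and inhibitors did. Mmp12, the macrophage elastase, had 9.07, 7.36 and 8.95 in the combination rats at 8 d and 3.67, 3.89 and 3.76 in vehicle rats at 15 d. At 48 h Mmp12 had 6.15, 4.54 and 6.40 in the combination rats and 3.96, 4.09 and 4.71 in vehicle rats. It was high in every rat at 8 d and intermediate in rats 70 and 72, with a shift of 3.25 ± 0.67 (SE, adjusted p = 0.00231) and a direct difference of 6.80-fold. Mmp12 was at least 17.1-fold above vehicle at 8 d. Serpine2, a protease inhibitor of the extracellular space, shifted by 1.07 (adjusted p = 0.0189). Mmp2, the gelatinase of stromal cells, shifted by 1.65 (adjusted p = 0.0287), but its other probe set had -0.28 and the call held in 11 of 22 alternative settings. The inhibitor Timp1 and the urokinase Plau were called against vehicle at 48 h only, without a called shift: Timp1 had changes of 0.80 at 8 d (adjusted p = 0.095) and 1.60 at 48 h (adjusted p = 0.00148), and Plau of 0.54 at 8 d and 1.54 at 48 h. Their shifts of -0.80 and -1.01 did not pass the test.

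A small set of mast cell genes appeared at 8 d. Cpa3, the mast cell carboxypeptidase, had 6.41, 6.71 and 6.09 in the combination rats at 8 d and 3.66, 4.10 and 4.04 in vehicle rats at 15 d. At 48 h Cpa3 had 3.96, 4.26 and 4.08 in the combination rats and 3.86, 3.97 and 4.14 in vehicle rats. Every rat at 8 d lay above the background level and every other rat below it, with a level at least 4.09-fold higher at 8 d than at 48 h and a shift of 2.35 ± 0.41 (SE, adjusted p = 0.000508). The same was seen for the granule protease Mcpt10, with 5.38, 5.51 and 4.97 in the combination rats at 8 d and 2.42, 2.38 and 2.38 in vehicle rats at 15 d. At 48 h Mcpt10 had 2.26, 2.17 and 2.26 in the combination rats and 2.13, 2.30 and 2.07 in vehicle rats. Mcpt10 was at least 1.89-fold higher at 8 d than at 48 h, a bound set by the background level (shift 2.82 ± 0.42 SE, adjusted p = 9.37e-05). Cma1, mast cell chymase, had 5.37, 5.71 and 5.87 in the combination rats at 8 d and 3.13, 3.31 and 3.48 in vehicle rats at 15 d. At 48 h Cma1 had 3.56, 3.67 and 3.68 in the combination rats and 3.29, 3.34 and 3.35 in vehicle rats. It was at least 2.43-fold higher at 8 d than at 48 h, with a shift of 2.04 ± 0.25 (SE, adjusted p = 1.34e-05). Mcpt1, another mast cell protease, was already 0.80 above vehicle at 48 h and shifted by 1.52 (adjusted p = 0.00697). Fcer1a, the alpha chain of the high-affinity IgE receptor, shifted by 1.53 (adjusted p = 0.000409), but its means lay below the background level in all 4 groups, so that no fold is given.

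These 5 were the upward genes among 19 measured mast cell and eosinophil genes, the same number as in each fit that left out 1 rat. The mast cell receptor Kit (-0.09), the enzyme of histamine synthesis Hdc (-0.35), the tryptases Tpsab1 (0.07) and Tpsb2 (0.11) and the IgE receptor chain Ms4a2 (0.32) had shifts that did not pass, and 14 of the 19 genes had a group below the background level. Of the eosinophil genes, the chemokine Ccl24 shifted downward (-1.18, adjusted p = 0.0369), and the granule genes Epx and Prg2 had -0.28 and 0.07. Ccl11, the chemokine eotaxin, was above vehicle at both times, by 2.04 at 8 d and 2.35 at 48 h. The median level of the list was 4.20 to 4.58 in the combination rats at 8 d, against 3.84 to 4.01 in the combination rats at 48 h.

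The promoters of Cpa3 and Cma1 are shown because both hold the letters AGATAA, the core of the element bound by GATA factors, which drive mast cell genes. The sequences are the 250 bases before the start of the gene, 5′ to 3′ in the gene's direction, from RefSeq on GRCr8, with Cpa3 at chr2:104673238-104673487 and Cma1 at chr15:33390134-33390383, both on the minus strand and with the match in capitals.
Cpa3: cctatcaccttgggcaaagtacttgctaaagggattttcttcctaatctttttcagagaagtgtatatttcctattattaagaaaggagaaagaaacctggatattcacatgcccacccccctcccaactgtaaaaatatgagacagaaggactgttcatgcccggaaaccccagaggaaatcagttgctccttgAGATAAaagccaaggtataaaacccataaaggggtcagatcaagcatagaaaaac
Cma1: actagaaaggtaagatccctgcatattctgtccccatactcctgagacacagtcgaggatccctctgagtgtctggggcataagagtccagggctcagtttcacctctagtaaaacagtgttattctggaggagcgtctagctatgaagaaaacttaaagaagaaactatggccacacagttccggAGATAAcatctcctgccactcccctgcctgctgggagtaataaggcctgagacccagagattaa
The match lies 55 bases before the start of Cpa3 and 64 before that of Cma1. The letters were chosen after the expression values were seen and were searched on both strands. They occur in 5 of 15 promoters of the mast cell and eosinophil list (33.3%) and in 6.62% of 11733 promoters of measured genes. Besides Cpa3 and Cma1, the promoters with these letters were those of Fcer1a, which shifted upward, Ccl24, which shifted downward, and Ccr3, which had no called shift. A match describes the letters only.

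Genes induced by interferon went the other way. Of 32 measured genes of the interferon response, 20 shifted downward and 0 upward, with a median of -1.24. Irf7, the transcription factor that amplifies the type I interferon response, had 7.00, 6.21 and 6.20 in the combination rats at 8 d and 7.54, 7.05 and 7.48 in vehicle rats at 15 d. At 48 h Irf7 had 9.13, 7.00 and 7.31 in the combination rats and 6.60, 6.46 and 6.63 in vehicle rats. The 48 h rats were above their vehicle rats and the 8 d rats below theirs, with changes of -0.88 at 8 d (adjusted p = 0.0231) and 1.25 at 48 h (adjusted p = 0.00226). The shift of Irf7 was -2.13 ± 0.41 (SE, adjusted p = 0.00136). Isg15, a ubiquitin-like protein attached to targets after interferon, had 5.99, 5.63 and 5.53 in the combination rats at 8 d and 6.99, 6.73 and 7.19 in vehicle rats at 15 d. At 48 h Isg15 had 8.61, 6.42 and 6.97 in the combination rats and 6.26, 6.14 and 6.24 in vehicle rats. Its changes were -1.25 at 8 d (adjusted p = 0.00417) and 1.12 at 48 h (adjusted p = 0.0145), and its shift was -2.37 ± 0.46 (SE, adjusted p = 0.00139). The direct difference of the combination groups was -1.34 for Irf7 and -1.62 for Isg15. Both genes lay below vehicle at 8 d by the test with the vehicle rats at 15 d. With the vehicle rats at 8 d in their place the changes at 8 d were -0.29 for Irf7 and -0.34 for Isg15 (adjusted p = 0.58 and 0.569), and with all vehicle rats as 1 control -0.28 and -0.62 (adjusted p = 0.383 and 0.0684), none past the test. The call of Irf7 at 8 d was also lost without rat 13, 15, 84 or 87. Igtp, a GTPase induced by interferon gamma, had 7.43, 6.35 and 6.91 in the combination rats at 8 d and 7.31, 7.20 and 7.88 in vehicle rats at 15 d. At 48 h Igtp had 8.89, 7.26 and 9.84 in the combination rats and 6.77, 6.82 and 6.62 in vehicle rats. Its shift was -2.49 ± 0.51 (SE, adjusted p = 0.00218), and rat 71 was the lowest of the 48 h combination rats for Irf7, Isg15 and Igtp.

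The other downward genes were the guanylate-binding GTPase Gbp2 (-2.58), the T cell chemokine Cxcl9 (-1.91), the immunoproteasome subunits Psmb8, Psmb9 and Psmb10 (-1.20, -1.67 and -1.44), the peptide transporters Tap1 and Tap2 (-1.20 and -1.29), the antiviral genes Mx1, Mx2, Oas1a, Oasl, Ifit3 and Rsad2 (-1.40, -1.62, -1.59, -0.92, -1.54 and -1.44), and Usp18, Irf1, Irgm and Ifi27 (-1.68, -1.28, -1.21 and -1.14). Against vehicle, 2 genes of the list were higher and 5 lower at 8 d, and 23 were higher and 0 lower at 48 h. By rat, the median change of the interferon response genes was -0.04, -0.50 and -0.34 at 8 d against 1.30, 0.33 and 0.81 at 48 h. All 3 rats at 8 d were below all 3 at 48 h. The vehicle groups took part in this shift: the vehicle rats at 15 d were 0.45 above those at 48 h in the list's median, and Irf7 itself by 0.79 (adjusted p = 0.0865). Compared directly, the combination at 8 d minus the combination at 48 h, the list's median was -0.80, with 18 genes called lower and 1 higher (19.9% and 15.2% of all genes). With the vehicle rats at 8 d in place of those at 15 d 6 genes of the interferon response were called lower. Without rat 70, the highest rat for Irf7 and Isg15, the median shift was -0.90 and 12 genes were called lower, and without rat 15 or 84 13 genes were. In a fit of the 4 groups alone, 7 were called lower.

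Promoters of Irf7, Gbp2 and Igtp are shown because each holds TTTC, any 2 bases and TTTC, the core of the interferon-stimulated response element, written in capitals. As above, they are the 250 bases before the start from RefSeq on GRCr8, in the gene's direction, with Irf7 at chr1:205800024-205800273 on the minus strand, Gbp2 at chr2:234005477-234005726 on the plus strand and Igtp at chr10:42874797-42875046 on the plus strand.
Irf7: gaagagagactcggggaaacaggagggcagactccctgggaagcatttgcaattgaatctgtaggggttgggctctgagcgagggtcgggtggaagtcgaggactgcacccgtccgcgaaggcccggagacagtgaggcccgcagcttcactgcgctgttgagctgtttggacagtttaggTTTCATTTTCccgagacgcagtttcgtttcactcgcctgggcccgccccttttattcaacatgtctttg
Gbp2: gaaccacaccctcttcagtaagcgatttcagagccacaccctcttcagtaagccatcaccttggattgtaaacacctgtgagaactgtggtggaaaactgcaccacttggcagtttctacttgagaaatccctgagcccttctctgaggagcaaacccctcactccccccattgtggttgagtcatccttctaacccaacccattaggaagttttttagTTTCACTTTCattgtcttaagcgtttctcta
Igtp: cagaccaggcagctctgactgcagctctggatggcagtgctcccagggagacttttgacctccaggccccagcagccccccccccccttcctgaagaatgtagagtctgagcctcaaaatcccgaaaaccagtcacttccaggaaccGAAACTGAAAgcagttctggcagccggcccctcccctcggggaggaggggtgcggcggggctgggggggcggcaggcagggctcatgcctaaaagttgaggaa
In Igtp the match is on the opposite strand and the capitals show its complement as read on the printed strand. The matches lie 69 bases before the start of Irf7 and 31 before that of Gbp2. Searched on both strands, these letters, also chosen after the values were seen, occur in 17 of 27 promoters of the interferon response list (63%) and in 2.65% of 11733 promoters.

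**Figure D3:**
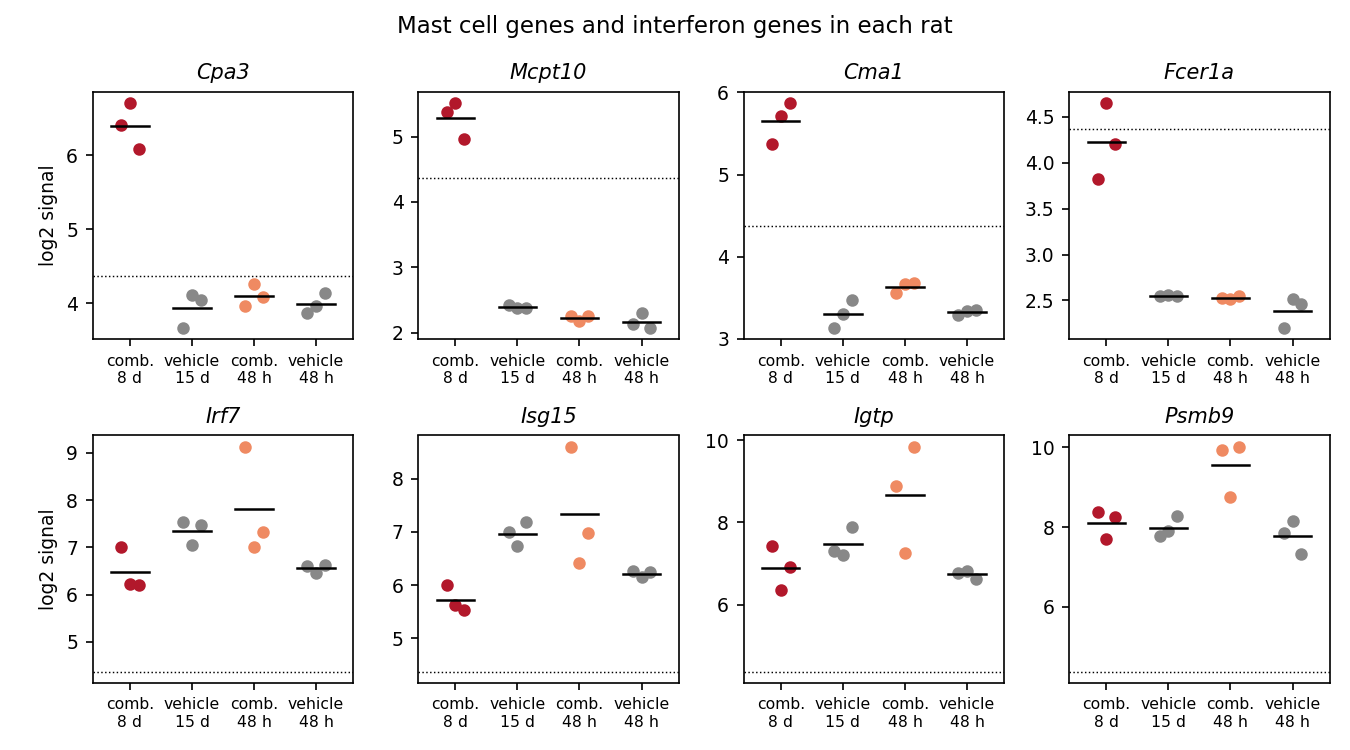
Log2 signal of 4 mast cell genes (upper row) and 4 interferon-induced genes (lower row) in each rat of the combination at 8 d, vehicle at 15 d, the combination at 48 h and vehicle at 48 h, with group means as bars and the background level of 4.37 dotted. Cpa3, Mcpt10 and Cma1 lie above the background level in the 3 rats at 8 d alone, whereas the means of Fcer1a lie below it in all 4 groups. For Irf7 and Isg15 the combination rats at 8 d lie below all vehicle rats at 15 d, while rat 70 is the highest at 48 h with 9.13 and 8.61.

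Macrophage genes were raised at 48 h and stood nearer to vehicle at 8 d. Of 34 measured macrophage and monocyte genes, 25 were higher than vehicle at 48 h and 10 at 8 d, with 0 lower at either time. The shift was downward in 8 genes and upward in 0, with a median of -0.53. Fcgr3a, a low-affinity receptor for IgG, had 7.12, 5.97 and 6.34 in the combination rats at 8 d and 6.25, 5.99 and 6.87 in vehicle rats at 15 d. At 48 h Fcgr3a had 7.38, 6.42 and 8.70 in the combination rats and 5.76, 5.36 and 5.07 in vehicle rats. Its shift was -1.99 ± 0.43 (SE, adjusted p = 0.00329), although the levels of the combination rats at the 2 times overlapped. For Fcgr3a the vehicle groups differed by 0.97 (15 d minus 48 h), and the direct difference was -1.02 (adjusted p = 0.00821). The complement C1q chains C1qa, C1qb and C1qc shifted by -1.07, -1.49 and -1.17, Aif1 by -1.69, the oxidase subunit Cyba by -1.07, the lysosomal protein Cd68 by -1.20 and the growth factor receptor Csf1r by -1.11. Cd68 and Csf1r kept their calls in 8 and 7 of 22 alternative settings. Genes known from scar-associated macrophages of human liver were high at both times: Gpnmb rose by 2.23 at 8 d and 2.69 at 48 h, and Lgals3 by 1.44 at 8 d and 2.26 at 48 h. The vehicle rats at 15 d exceeded those at 48 h by 0.50 in the median of the macrophage and monocyte list, and compared directly the combination groups differed by -0.21, with 1 gene called lower. The count of macrophage and monocyte genes called lower was 15 without rat 71, 2 without rat 12, 3 without rat 15 or 84, 4 without rat 72, 5 without rat 11, 13, 14, 70 or 87, and 0 in a fit of the 4 groups alone. Clec4f, a lectin of Kupffer cells, shifted by -1.20, and 6 other Kupffer cell genes did not pass. Csf1, the ligand that maintains macrophages, had 8.21, 8.20 and 8.12 in the combination rats at 8 d and 8.92, 8.77 and 9.16 in vehicle rats at 15 d. At 48 h Csf1 had 9.13, 9.41 and 9.61 in the combination rats and 8.92, 8.97 and 8.97 in vehicle rats. It was below vehicle at 8 d (-0.77) and above it at 48 h (0.43), with a shift of -1.20 ± 0.18 (SE, adjusted p = 9.37e-05). In the fit of every probe set, the other ones of Csf1 had smaller shifts. These were -0.55 (adjusted p = 0.0361), -0.24 (adjusted p = 0.289) and -0.35 (adjusted p = 0.424). With the vehicle rats at 8 d in place of those at 15 d the change of Csf1 at 8 d was -0.23 and did not pass (adjusted p = 0.262), and its change at 48 h kept its call in 10 of 15 alternative settings.

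Class II antigen presentation stayed high. Of 9 measured MHC class II genes, 8 were higher than vehicle at 8 d and 8 at 48 h, with median changes of 1.77 and 1.98, and 0 had a called shift (2 downward without rat 71). Cd74, the invariant chain that escorts class II molecules, had 11.13, 10.28 and 10.90 in the combination rats at 8 d and 8.84, 9.04 and 9.12 in vehicle rats at 15 d. At 48 h Cd74 had 10.92, 10.63 and 11.52 in the combination rats and 9.11, 8.27 and 8.38 in vehicle rats. RT1-Da, a class II alpha chain, rose by 2.12 at 8 d and 2.70 at 48 h, with a shift of -0.58 (adjusted p = 0.33). Ciita, the class II transactivator, changed by 0.02 at 8 d and 0.15 at 48 h, neither past the test. Of 29 T and NK cell genes 2 shifted downward, beside 4.97% of all genes. They were the granule protease Gzma (-1.09, a call kept in 9 of 21 alternative settings) and the kinase Lck (-0.69). The median level of the T and NK cell list was near the background level, at 4.17 to 4.71 in the combination rats at 8 d and 4.29 to 4.70 in those at 48 h. Of 13 neutrophil genes 0 shifted in limma, and 10 of 13 had a group below the background level. Of 42 cytokines and chemokines, 5 shifted downward (Cxcl9, Csf1, Ccl24, Ccl6 and Xcl1) and 0 upward. Without rat 11, 15 or 84 3 of the cytokines and chemokines did.

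Cell division genes were raised at both times, with the replication genes early. Of 54 measured cell cycle and mitosis genes, 36 were higher than vehicle at 8 d and 35 at 48 h, with 0 lower, and the median change was 0.87 at 8 d and 0.93 at 48 h. The shift was downward in 6 genes: the replicative helicase subunits Mcm2 (-1.38), Mcm3 (-1.18), Mcm5 (-1.42), Mcm6 (-2.02) and Mcm7 (-0.83), and Ccne1 (-0.98), the cyclin of the G1 to S transition. The downward count of the cell cycle and mitosis list was 10 without rat 72, 3 without rat 70 or 84, and 2 in a fit of the 4 groups alone or with the vehicle rats at 8 d. Mcm6 had 5.01, 4.41 and 5.34 in the combination rats at 8 d and 3.89, 4.29 and 3.91 in vehicle rats at 15 d. At 48 h Mcm6 had 8.34, 6.16 and 5.44 in the combination rats and 3.92, 3.67 and 3.62 in vehicle rats. All 48 h rats were above all 8 d rats, and rat 70 was far the highest; Mcm6 rose at least 4.84-fold at 48 h, and its shift had an adjusted p of 0.0212. Mcm5 had 5.19, 4.88 and 5.39 in the combination rats at 8 d and 5.26, 5.15 and 5.33 in vehicle rats at 15 d. At 48 h Mcm5 had 7.16, 6.35 and 6.09 in the combination rats and 5.11, 5.37 and 5.15 in vehicle rats. At 8 d Mcm5 lay within the range of vehicle or just outside it, and its shift was -1.42 ± 0.25 (SE, adjusted p = 0.000567). The helicase loader Cdt1, which acts with the Mcm complex, fell likewise (shift -1.63, adjusted p = 0.00774).

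No mitotic gene of the list had a called downward shift. Mki67, a marker of dividing cells, had 5.06, 4.76 and 7.09 in the combination rats at 8 d and 2.45, 2.83 and 2.91 in vehicle rats at 15 d. At 48 h Mki67 had 5.56, 3.31 and 4.67 in the combination rats and 2.23, 2.55 and 2.38 in vehicle rats. Cdk1, the kinase that starts mitosis, had 5.85, 5.94 and 8.06 in the combination rats at 8 d and 3.40, 3.74 and 4.0 in vehicle rats at 15 d. At 48 h Cdk1 had 6.47, 4.68 and 5.85 in the combination rats and 3.29, 3.70 and 3.64 in vehicle rats. Rat 87 was the highest for both genes, and the combination rats of the 2 times overlapped. Mki67 was at least 2.40-fold and Cdk1 at least 4.74-fold above vehicle at 8 d, and Cdk1 at least 2.45-fold at 48 h, while their shifts of 0.78 and 0.78 did not pass (adjusted p = 0.546 and 0.505). The kinetochore kinase Ttk alone shifted upward, by 1.47 (adjusted p = 0.0304), a call kept in 12 of 21 alternative settings. By rat, the median change over the cell cycle and mitosis genes was 0.60, 0.62 and 1.47 at 8 d against 1.36, 0.43 and 0.68 at 48 h, so that 1 rat stood out at each time. Without rat 87 the list's median shift was -0.15, against 0.26 with it.

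The promoter of Cdk1 is shown because it holds the letters TTTGAA, known as the CHR element of mitotic genes, at 72 and at 16 bases before the start, in capitals. It lies at chr20:19265043-19265292 on the plus strand of GRCr8 (RefSeq).
Cdk1: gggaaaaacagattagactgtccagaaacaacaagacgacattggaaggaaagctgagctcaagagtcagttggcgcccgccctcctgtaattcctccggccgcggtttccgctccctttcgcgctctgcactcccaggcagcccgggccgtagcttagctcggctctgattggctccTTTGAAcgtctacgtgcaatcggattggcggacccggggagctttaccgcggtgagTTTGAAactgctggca
Searched on both strands, TTTGAA occurs in 14 of 45 promoters of the cell cycle and mitosis list (31.1%) and in 10.9% of 11733 promoters, and CCAAT in 31 of 45 (68.9%) and 35.1%. Of the Mcm genes with a downward shift, Mcm2 holds TTTGAA and Mcm3, Mcm5, Mcm6 and Mcm7 hold CCAAT in this window.

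Proteasome and heat shock genes fell in the shift, but the vehicle groups differed in the same genes. Of 30 proteasome subunit genes, 18 shifted downward and 0 upward, with a median of -0.63. Without rat 70, 8 of the proteasome genes were called downward, and 10 with the RNA quality measure as a covariate. The largest were the core subunit Psma2 (-0.94), the ubiquitin receptor Psmd4 (-0.94) and the core subunit Psmb3 (-0.93). At 48 h, 29 of the 30 were above vehicle (median 0.67), and at 8 d 5 were (median 0.16). The vehicle rats at 15 d exceeded those at 48 h in 22 of the 30 genes (median 0.55), against 4.72% of all genes. Compared directly, the combination groups had a median difference of -0.06, with 4 genes higher and 6 lower, beside 15.2% and 19.9% of all genes. Of 17 heat shock genes, 4 shifted downward (Hsph1, Hspe1, Ahsa1 and Hsp90ab1, at -0.84, -0.75, -0.71 and -0.58), and 7 were higher in vehicle at 15 d than in vehicle at 48 h (median 0.66). The direct median of the heat shock list was 0.15 with 2 genes higher, beside 15.2% of all genes. Leaving out any 1 rat but 72 and 73 brought the downward heat shock genes to 1 or 2, the covariate for RNA quality to 1, and Hsph1 and Hsp90ab1 kept their calls in 8 of 22 alternative settings each. Among the 4 groups compared, the RNA quality measure was farthest apart between the vehicle groups, and with it as a covariate the number of shifted genes over all genes was 658. Hmox1, heme oxygenase, which degrades heme and is induced by oxidative stress, had 8.67, 7.68 and 7.87 in the combination rats at 8 d and 8.09, 8.15 and 8.43 in vehicle rats at 15 d. At 48 h Hmox1 had 8.81, 9.38 and 9.33 in the combination rats and 7.85, 7.68 and 7.11 in vehicle rats. All 48 h rats were above all 8 d rats, with a direct difference of 8 d minus 48 h of -1.10 (adjusted p = 0.000761), and the shift was -1.78 ± 0.35 (SE, adjusted p = 0.00164). It was the only one of 25 NRF2 target genes with a called shift (4 of the NRF2 targets without rat 72), while 14 were above vehicle at 8 d and 19 at 48 h, among them Srxn1, which repairs peroxiredoxins (1.52 at 8 d, 1.78 at 48 h). The NRF2 element core TGACNNNGC occurs in 4 of 23 of their promoters (17.4%) and in 12.3% of 11733.

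Targets of the nuclear receptors that nevirapine activates were high at both times. Of 22 CAR and PXR target genes, 16 were above vehicle at 8 d and 16 at 48 h, with median changes of 1.08 and 1.18, and 0 had a called shift. Sult1e1, the estrogen sulfotransferase, had 12.05, 11.67 and 11.98 in the combination rats at 8 d and 7.84, 5.77 and 5.24 in vehicle rats at 15 d. At 48 h Sult1e1 had 13.16, 12.51 and 11.89 in the combination rats and 6.96, 5.47 and 7.83 in vehicle rats. It was 49.1-fold above vehicle at 8 d and 54.5-fold at 48 h, and its shift of -0.15 ± 0.95 (SE) did not pass (adjusted p = 0.942). Cyp3a2, a steroid-hydroxylating cytochrome P450 that is low in adult female rats, had 11.35, 12.23 and 11.18 in the combination rats at 8 d and 5.30, 5.86 and 5.36 in vehicle rats at 15 d. At 48 h Cyp3a2 had 12.01, 12.08 and 9.20 in the combination rats and 8.52, 6.48 and 6.66 in vehicle rats. It was 67.8-fold above vehicle at 8 d and 14.7-fold at 48 h, with a shift of 2.21 (adjusted p = 0.184). The carboxylesterase Ces2c rose 12.3-fold at 8 d and 6.86-fold at 48 h. Genes below vehicle at both times included the thyroxine-binding globulin Serpina7 (-1.80 at 8 d, -1.98 at 48 h), the growth factor binding protein Igfbp2 (-1.66 at 8 d, -2.13 at 48 h) and the fatty acid desaturase Fads2 (-1.52 at 8 d, -2.01 at 48 h).

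Hepatocyte enzymes that were low at 48 h stood closer to vehicle at 8 d. Fmo1, a flavin monooxygenase of drug metabolism, had 9.58, 10.73 and 10.23 in the combination rats at 8 d and 9.95, 9.81 and 9.69 in vehicle rats at 15 d. At 48 h Fmo1 had 7.80, 7.87 and 8.59 in the combination rats and 9.86, 9.96 and 10.02 in vehicle rats. The 48 h rats were below all others, and the shift was 4.68-fold (log2 2.23 ± 0.39 SE, adjusted p = 0.000604). Prodh, proline dehydrogenase, the first enzyme of proline breakdown, had 9.67, 10.01 and 10.15 in the combination rats at 8 d and 10.18, 10.46 and 10.39 in vehicle rats at 15 d. At 48 h Prodh had 7.86, 9.17 and 9.90 in the combination rats and 10.76, 11.12 and 11.17 in vehicle rats. Its shift was 1.64 ± 0.40 (SE, adjusted p = 0.00864), and a dim other probe set had -0.11. Of 35 genes of amino acid catabolism and urea cycle, 12 were below vehicle at 48 h and 3 at 8 d, and 5 shifted upward with 0 downward: Prodh, the alanine aminotransferase Gpt2 (1.22), the urocanase Uroc1 (0.97), the urea cycle enzyme Otc (0.87) and the ornithine transporter Slc25a15 (0.80). The call of Uroc1 held in 9 of 22 alternative settings. The upward count of the amino acid catabolism and urea cycle list was 8 without rat 71, 1 without rat 11, 13, 70 or 87, and 2 without rat 10, 12, 14, 15 or 84. Compared directly, 12 of the 35 were higher at 8 d than at 48 h. Hal, which degrades histidine, stayed low, at -1.37 at 8 d and -1.36 at 48 h. Among 20 pericentral and periportal genes 2 shifted upward, Lgr5, a receptor of the Wnt pathway around the central vein (0.92), and the calcium-binding Rgn (1.28). The call of Rgn held in 11 of 22 alternative settings, and the upward count of the pericentral and periportal zonation list was 7 without rat 72, 4 without rat 73 and 0 with the vehicle rats at 8 d in place of those at 15 d. Of 32 hepatocyte function genes 11 were below vehicle at 48 h and 3 at 8 d, and of 26 complement and coagulation genes 10 were at 48 h and 3 at 8 d, with 0 called shifts in limma in either list. Without rat 71 2 and without rat 72 3 of the complement and coagulation genes shifted upward. Over all genes, 3601 had an unadjusted p under 0.05 for the shift.

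Some genes of fasting and fatty acid oxidation shifted downward, and 2 of 27 genes of fatty acid synthesis and storage shifted upward, beside 4.04% of all genes. Fgf21, the hormone that the liver releases on fasting and stress, had 5.71, 5.02 and 4.63 in the combination rats at 8 d and 7.87, 7.80 and 6.82 in vehicle rats at 15 d. At 48 h Fgf21 had 5.19, 6.61 and 5.69 in the combination rats and 6.34, 6.25 and 5.06 in vehicle rats. Its shift was -2.32 ± 0.51 (SE, adjusted p = 0.00385), but the vehicle rats at 15 d exceeded those at 48 h by 1.62, and the direct difference of the combination groups, -0.71, did not pass (adjusted p = 0.12). Inhbe, the activin subunit made by hepatocytes, had 7.86, 5.57 and 7.05 in the combination rats at 8 d and 8.61, 8.63 and 8.76 in vehicle rats at 15 d. At 48 h Inhbe had 7.61, 7.82 and 8.65 in the combination rats and 8.01, 7.90 and 6.96 in vehicle rats. Rat 84 was the lowest, and the shift of Inhbe was -2.25 ± 0.63 (SE, adjusted p = 0.0207), with vehicle groups 1.05 apart (15 d minus 48 h) and a direct difference of -1.20 (adjusted p = 0.0334). Of 25 fatty acid oxidation genes, 9 were below vehicle at 8 d and 1 at 48 h, and 4 shifted downward (Fgf21, Eci1 at -1.20, Hadha at -0.60 and Acadl at -0.50), with 0 upward. In this list too the vehicle rats at 15 d were above those at 48 h (median 0.36), and the direct median was -0.02. Of 30 respiratory chain genes, 17 were below vehicle at 8 d and 4 at 48 h. In this list 1 gene shifted upward and 2 downward, beside 4.04% and 4.97% of all genes. Without rat 72 6 of the respiratory chain genes shifted downward. Lpl, lipoprotein lipase, which is low in normal adult hepatocytes, had 9.04, 9.81 and 9.67 in the combination rats at 8 d and 7.84, 7.53 and 6.90 in vehicle rats at 15 d. At 48 h Lpl had 7.38, 7.17 and 7.79 in the combination rats and 7.30, 6.87 and 7.35 in vehicle rats. Every rat at 8 d was above every other rat, and the shift of Lpl was 1.81 ± 0.49 (SE, adjusted p = 0.0171). Lpl and Srebf1, the transcription factor of lipid synthesis (1.28, adjusted p = 0.0351), were the upward genes among 27 of fatty acid synthesis and storage, with 0 downward and a median of -0.08. Against vehicle, 3 of the 27 were higher and 6 lower at 8 d (13.1% and 11.7% of all genes), with a median change of -0.24. At 48 h 1 was higher and 5 were lower, and the direct median of the list was -0.24. Srebf1 had a direct difference of -0.20. Without rat 15 0 genes of fatty acid synthesis and storage were called upward, and without rat 72 2 were called downward. Cyp7a1, the rate-limiting enzyme of bile acid synthesis, had a shift of 2.93 (adjusted p = 0.0519) with a change of 2.57 at 8 d, and its vehicle groups differed by -2.48 (15 d minus 48 h), while the direct difference of Cyp7a1 was 0.45 (adjusted p = 0.639).

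**Figure D4:**
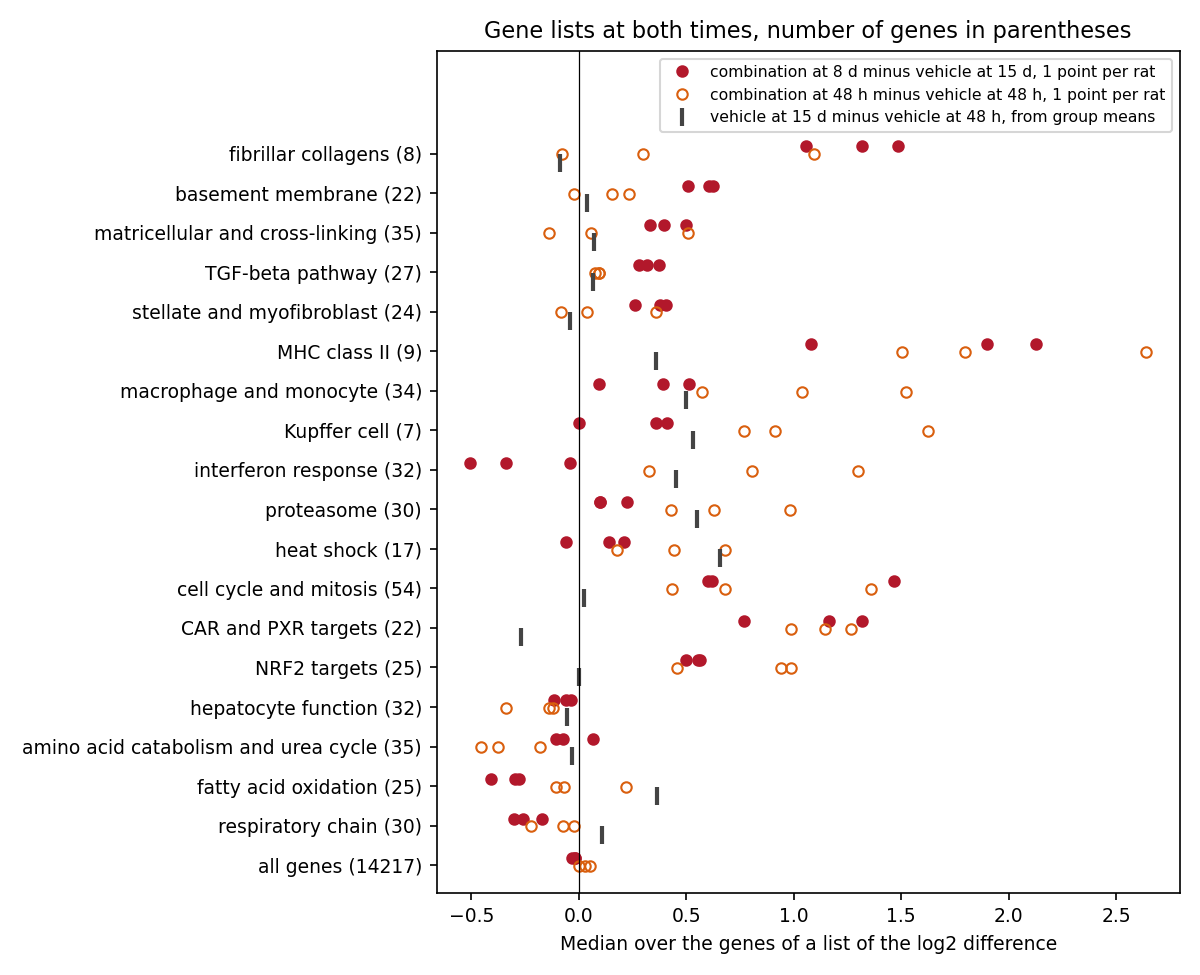
For each gene list, with its number of genes in parentheses, each point is the median over the genes of the log2 difference of 1 rat from its vehicle mean, filled for the combination at 8 d and open for the combination at 48 h, and the bar is the median difference of vehicle at 15 d minus vehicle at 48 h. The interferon response points lie at -0.50 to -0.04 at 8 d and at 0.33 to 1.30 at 48 h, the fibrillar collagens at 1.06 to 1.49 and at -0.08 to 1.10, and the vehicle bar of the proteasome list lies at 0.55.

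The 57 genes called in opposite directions split into 27 that were higher at 8 d and lower at 48 h and 30 that were lower at 8 d and higher at 48 h. Of the first kind, Lmo7, a LIM domain protein of cell junctions, changed by 0.70 at 8 d and -1.14 at 48 h, Acadsb, a dehydrogenase of branched-chain acyl-CoA, by 0.83 at 8 d and -1.07 at 48 h, Itsn2, an endocytic scaffold protein, by 0.69 at 8 d and -0.33 at 48 h, and Zyg11b by 0.96 at 8 d and -0.65 at 48 h. For Acadsb the vehicle groups differed by -1.36 (15 d minus 48 h) and the direct difference was 0.54 (adjusted p = 0.0547), and for Zyg11b the other probe set, which is below the background level on average, had a shift of -0.74 (adjusted p = 0.0276). Of the other kind, Isg15, Irf7 and Csf1 are given above, Ifit3, an antiviral protein, changed by -0.77 at 8 d and 0.78 at 48 h, and Oas1a, which makes the activator of RNase L, by -0.75 at 8 d and 0.84 at 48 h. With vehicle rats at 8 d in place of those at 15 d, the changes at 8 d of Acadsb, Zyg11b and Oas1a had the opposite sign, at -0.48, -0.17 and 0.11. In the same setting the changes at 8 d of Lmo7 (0.12, adjusted p = 0.819) and Ifit3 (-0.38, adjusted p = 0.411) no longer passed, as for Irf7, Isg15 and Csf1. The call of Lmo7 at 8 d held in 7 of 16 alternative settings, and with the mean of its probe sets the change was 0.08. At 48 h the call held in 6 of 15 settings for Itsn2, 8 of 14 for Zyg11b, 5 of 14 for Ifit3 and 6 of 14 for Oas1a.

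The remaining large shifts belonged to genes of several roles. Among the rises were Frzb, a secreted inhibitor of Wnt signalling (1.62), the tetraspanin Tspan8 (1.84, a call kept in 12 of 22 alternative settings), Pik3c2g, a lipid kinase of the liver (1.60), Cyp2u1, a fatty acid hydroxylase (1.64), and the protocadherin Pcdh17, which was at least 3.83-fold higher at 8 d than at 48 h. Among the falls were Abhd2 (-1.85), Slfn4 (-2.29), a gene of the Schlafen family, and Fabp2, a fatty acid binding protein (-2.06). Fabp2 was 1.79 higher in vehicle at 15 d than in vehicle at 48 h, and its direct difference of 8 d minus 48 h was -0.27. Of 19 endothelial genes 1 shifted upward and 2 downward, beside 4.04% and 4.97% of all genes. The upward one was Vwf, the platelet-binding factor (1.01, a call kept in 13 of 22 alternative settings), and the downward ones were Eng and the IgG receptor Fcgr2b (-0.63). Of 21 cholangiocyte and progenitor genes 3 shifted downward (Krt18, Cldn7 and Ehf). Of 20 cholesterol biosynthesis genes 0 shifted in limma, with a median of 0.27 and a direct median of -0.49.

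Galactosamine alone, which per the stated purpose of the series did not lead to fibrosis, was sampled over the same interval and set against the vehicle groups at 8 d and 48 h. With 3 galactosamine rats at 8 d, 2 at 48 h and 3 vehicle rats at 8 d, 5 genes differed from vehicle at 8 d (0.0352%), 1 higher (0.00703%) and 4 lower (0.0281%), while 846 had an unadjusted p under 0.05, and 5600 genes differed at 48 h (39.4%). The shift of the combination minus the shift of galactosamine alone was called in 2735 genes (19.2%), 1605 higher and 1130 lower in the combination. Vehicle at 48 h is shared by both shifts and cancels in this difference. At 8 d the combination and galactosamine alone were set against different vehicle groups, and what separates those groups does not cancel. Without vehicle groups 3441 genes were called, and 2191 of the 2735 were called the same way. The matrix genes were among the 2735. The difference was 5.36 ± 1.41 for Postn (SE, adjusted p = 0.00765), 4.58 for Aspn (adjusted p = 0.00161) and 3.87 for Lox (adjusted p = 0.00423). It was 3.87 for Mmp12 (adjusted p = 0.00172), 2.41 for Plod2 (adjusted p = 0.00194) and 2.17 for Ltbp1 (adjusted p = 0.00171). At 8 d after galactosamine alone these genes were 0.62, 0.07, 0.77, 0.55, 0.43 and 0.47 above vehicle, none past the test. At 48 h after galactosamine alone Postn was higher than vehicle by 2.15, Lox by 1.62 and Col3a1 by 1.19. Of 35 matricellular and cross-linking genes, 10 had a higher and 1 a lower shift in the combination (11.3% and 7.95% of all genes), and of the 8 fibrillar collagens 2 had a higher one, Col5a2 and Col3a1. The mast cell genes Mcpt10, Cma1, Cpa3 and Mcpt1 had differences of 3.57, 2.04, 2.19 and 1.52, all past the test.

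For cell division the shifts also differed. Of the 54 cell cycle and mitosis genes, 15 had a higher and 1 a lower shift in the combination than after galactosamine alone. Over all genes the shares were 11.3% and 7.95%. Mki67 changed by 0.13 at 8 d and 2.07 at 48 h after galactosamine alone, against 2.90 at 8 d and 2.12 at 48 h in the combination, and the difference of the shifts was 2.72 ± 0.95 (SE, adjusted p = 0.0383). For the interferon response it was called higher in 2 and lower in 2 of 32 genes (11.3% and 7.95% of all genes). For Irf7 it was -0.47 (adjusted p = 0.551), and Irf7 was also 2.13 above vehicle at 48 h after galactosamine alone. The largest differences were those of Cyp7a1 (6.56, adjusted p = 0.00041), Lama5, a laminin chain (5.37), and, downward, of Apoa4, an apolipoprotein (-3.39), and Nr0b2, a repressor of bile acid synthesis (-2.64). With the mean of its probe sets in place of the brightest, the difference for Lama5 was 1.80, and both other probe sets of Lama5 lay below the background level on average. The galactosamine group at 48 h held 2 rats, and without rat 27 of it 1574 genes were called in place of 2735.

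**Figure D5:**
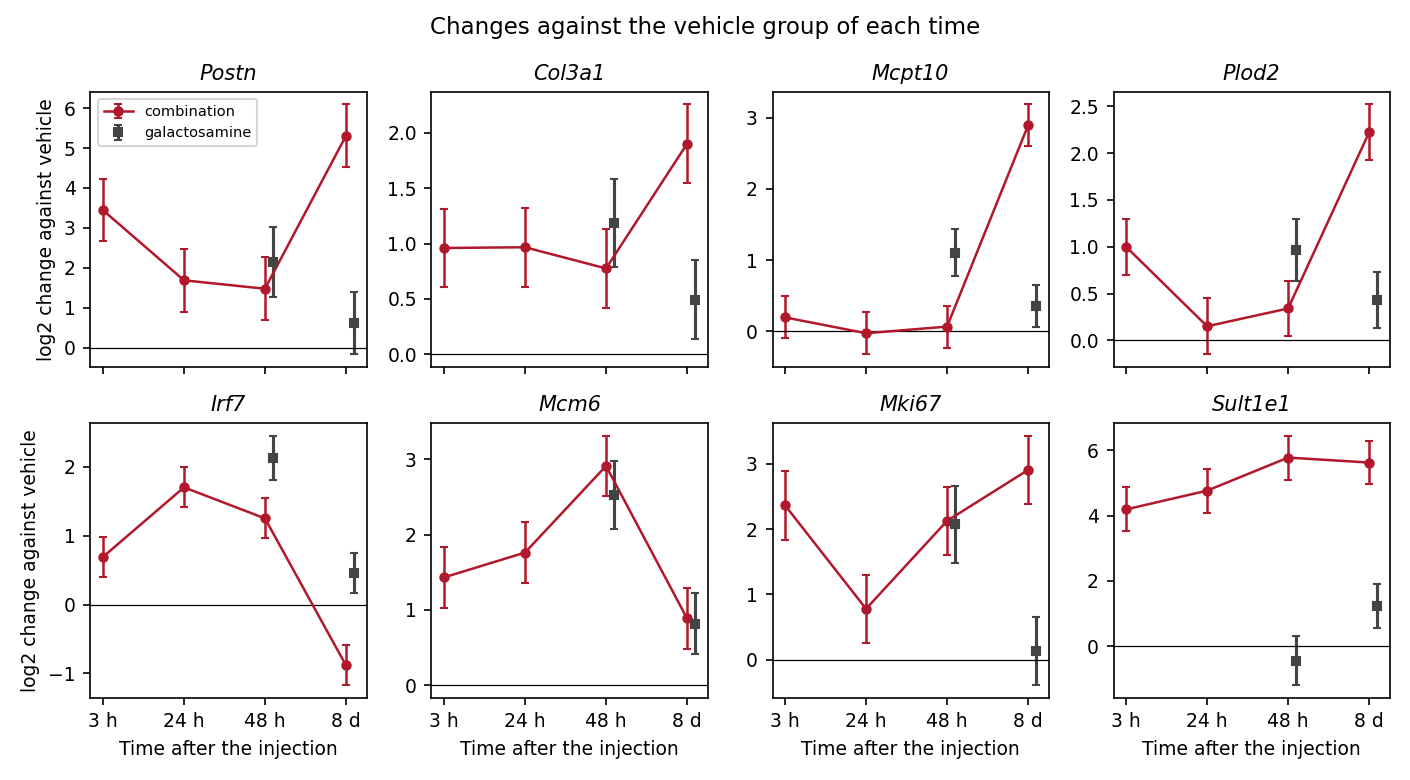
Log2 change against the vehicle group of each time (vertical axis) at 3 h, 24 h, 48 h and 8 d after the injection (evenly spaced on the horizontal axis) for 8 genes, in the combination (red circles, 3 rats a time) and after galactosamine alone (grey squares, at 48 h and 8 d), with bars of 1 SE from the limma fit. In the combination Mcpt10 lies between -0.03 and 0.20 up to 48 h and at 2.89 at 8 d, Postn at 3.44 at 3 h, 1.47 at 48 h and 5.31 at 8 d, and Irf7 at 1.70 at 24 h and -0.88 at 8 d.

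Earlier times of the combination place these genes in its course. The combination and vehicle rats at 3 h were sampled 5 h after the last oral dose, those of the other times 2 h after it. Against the vehicle group of each time, Postn was 3.44 higher at 3 h (adjusted p = 0.00081), 1.69 higher at 24 h, 1.47 at 48 h and 5.31 at 8 d. Col5a2 changed by 2.04 at 3 h, 0.69 at 24 h, 0.99 at 48 h and 2.72 at 8 d. Cpa3 changed by 0.21, 0.00 and 0.11 at 3 h, 24 h and 48 h and by 2.47 at 8 d, and among these times passed the test at 8 d alone. Irf7 changed by 0.69 at 3 h, 1.70 at 24 h, 1.25 at 48 h and -0.88 at 8 d, and Gbp2 by 4.17, 3.85, 2.78 and 0.20 in the same order. Mcm6 changed by 1.43, 1.76, 2.91 and 0.89 in that order. The numbers of genes called against vehicle were 4627 at 3 h (32.5%) and 5219 at 24 h (36.7%).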

How the data were processed

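The data are Affymetrix 3' expression arrays of rat liver RNA, 1 array per rat, deposited by the authors as log2 values after RMA (background correction, quantile normalization and probe-set summary), per the submitters' processing notes, with no further step named in the sources used here. All 50 arrays of 17 groups (2 or 3 rats each) entered 1 fit with limma 3.58.1 in R 4.3.3, 1 mean per group and eBayes, with Benjamini-Hochberg adjustment over 14217 genes. Of 31099 probe sets, 20826 had 1 gene symbol, 436 had several, 9780 were unnamed and 57 were controls. The brightest probe set stood for a gene, as measured by its mean over all arrays, which mattered for 4525 genes. No array held values identical to another, and the highest correlation of a pair was 0.997. Precision is limited by the number of arrays. On simulated data with 14217 genes the fit called 25% of 1.5-fold and 73% of 2-fold shifts between the times, and 8% and 59% of such differences from the galactosamine shift.

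Genes were named by rank of shift, where rats did not overlap once vehicle means were taken off, and by lists and their pattern over both times, overlapping or not. The members, gene lists and this naming rule were chosen with earlier results of these data known, and the interferon and GATA letters after the values were seen. Alternatives were other probe-set rules, a filter on dim genes, cyclic loess, array weights, the GAPDH difference as a covariate, other vehicle groups, only the groups compared, and leaving out each rat. Promoters and coordinates are RefSeq's on GRCr8. Not every gene has an entry there.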

Additional observations from a re-analysis of the deposited data

Results flagged for a closer look

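The changes against vehicle at 8 d and at 48 h differed, by the test of their difference, in 1281 genes, of which 57 were called in opposite directions at the 2 times. Among these, the shift (change at 8 d minus change at 48 h) was 1.62 for Zyg11b, 1.90 for Acadsb, 1.18 for Bivm, 1.84 for Lmo7, 1.02 for Itsn2 and 1.12 for Tbl1x, all higher at 8 d. It was -2.37 for Isg15, -2.13 for Irf7, -1.50 for Wfdc3, -1.20 for Csf1, -1.54 for Ifit3 and -1.59 for Oas1a, all lower at 8 d.

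The shift of the combination differed from that of galactosamine alone in 2735 genes. The difference, combination minus galactosamine, was 6.56 for Cyp7a1, 5.37 for Lama5, 5.36 for Postn, 4.92 for Pcdh17, 4.64 for Srxn1 and 4.58 for Aspn. It was -3.39 for Apoa4, -2.64 for Nr0b2, -2.58 for Mmd2, -2.31 for Esm1, -2.30 for Insig2 and -2.26 for Nim1k. No group held 4 rats, so single rats were not tested as outliers.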

How the results depend on the processing

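No paired analysis was possible because every rat has a number of its own and no number is shared between groups. The shift was called in 1281 genes, and in 2221 with array weights, 658 with the GAPDH difference as a covariate, 448 with vehicle at 8 d in place of vehicle at 15 d, and 4990 without vehicle groups. Of the 1281, 628 were called the same way with the GAPDH covariate and 331 with vehicle at 8 d. The change at 8 d was called in 5557 genes with array weights and 1763 with vehicle at 8 d, against 3521, and the change at 48 h in 374 with only its own groups in the fit, against 2265. The vehicle difference was called in 2013, 3476 and 347 genes with only its groups, with array weights and with the GAPDH covariate, against 1094. The difference from the galactosamine shift was called in 1707 genes with the dimmest 40% left out and 4859 with array weights, against 2735. Leaving out 1 rat gave 803 to 1719 genes for the shift (833 without rat 14, 803 without rat 15, 809 without rat 87, 845 without rat 70), 2418 to 3156 at 8 d, 1104 to 2380 at 48 h (1104 without rat 70, 1402 without rat 12), 451 to 1099 for the vehicle groups (601, 544 and 685 without rats 13, 14 and 15, and 618 and 451 without rats 11 and 12) and 1574 to 3385 for the difference from galactosamine (1574 without rat 27). Without vehicle groups the sign of the shift turned for Cdkn1a (1.37), Fcgr2b (0.22), Hsp90ab1 (0.032), Hsph1 (0.15), Nr1d2 (-0.81), Per3 (-2.18), Srebf1 (-0.20), Tef (-0.78), Tnfsf10 (0.28), Tor3a (0.18) and Tubb2a (0.94). The change at 8 d turned for Tbl1x (-0.062) with the mean of its probe sets, for Acadsb (-0.48), Oas1a (0.11) and Zyg11b (-0.17) with vehicle at 8 d, and for Acadsb (-0.16) with all vehicle rats as 1 control, where the change at 48 h of Wfdc3 turned to -0.37. The cause was not tested. Of the other single-gene results for the shift, 5648 kept direction and side of the threshold, 555 fell below it and 224 passed it.

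Calls of the shift held in every setting run for Plod2, Ltbp1, Ltbp3, Tgfb3, Aspn, Mmp12, Mcpt10, Cpa3, Cma1, Fcer1a, Mcpt1, Fmo1, Hmox1, Csf1 and Mcm5. Postn lost its call in the fits without rats 87, 70, 71, 15 and 10, with only the 4 groups, with the GAPDH covariate and with vehicle at 8 d (highest adjusted p = 0.0863). Isg15 and Psmb9 lost theirs with vehicle at 8 d (adjusted p = 0.0705 and 0.0599), Irf7, Igtp and Gbp2 with only the 4 groups (0.0543, 0.0518 and 0.0969), and Fgf21 without vehicle groups (0.12). Shifts of 1.5-fold were mostly not called in the simulation, and genes below the background level have bounds only.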
